A study of Mus musculus with 12 samples.

Results

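Mouse embryonic stem (ES) cells without Eed were compared with ES cells without Ring1B, the protein that the gene Rnf2 encodes. The comparison covered every annotated gene of an Affymetrix Mouse 430_2.0 expression array, on 3 arrays of each genotype, which are 6 of the 12 arrays of the series. Of 18193 genes that could be named on the array, 13985 had a signal high enough to be tested. The Ring1B deficient line carries a mutation of Ring1B made by gene targeting, and the Eed deficient line carries a mutation of Eed made the same way. The other 6 arrays, 3 of wild type ES cells and 3 of a double deficient line, entered the same model and are given beside the comparison as reference levels. The double line came from the Eed deficient cells, in which Ring1B was then mutated, so it shares the history of the Eed deficient line as well as its mutation. Each genotype is described in the labels as a single line, so a difference between genotypes cannot be told apart from a difference between lines. The cells were judged undifferentiated by colony morphology before RNA was taken. The labels call the 3 arrays of a genotype biological replicates without saying what was separate, so the p-values measure the spread between these arrays.

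Eed and Ring1B belong to different Polycomb complexes. Eed is a core subunit of Polycomb repressive complex 2, which places H3K27me3 on chromatin, and cells without Eed cannot keep that mark. Ring1B is the main E3 ligase of Polycomb repressive complex 1, which places a single ubiquitin on histone H2A. Some forms of the second complex are recruited by H3K27me3 through their Cbx subunits, and others reach DNA without it. A variant that contains Pcgf6, E2f6, Mga and Max is known for silencing germline genes in ES cells. The comparison of the mutants asks which genes differ in level between the line without Eed and the line without Ring1B.

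Values are deposited signals on a linear scale, and differences are Eed deficient minus Ring1B deficient on the log2(signal + 5) scale, which shortens the fold of dim genes. A gene is called at an adjusted p under 0.05 from a limma model with Benjamini-Hochberg adjustment over all 13985 genes. Within each mutant the arrays correlated at 0.963 to 0.982 across genes, and the medians of the 6 arrays lay between 19.66 and 22.84. Arrays of the 2 mutants numbered 1 or 2 deviated together (correlations of 0.40 and 0.61). Those numbered 3 did so little more than unmatched pairs (0.18, against at most 0.16). The number was also used as a block, and block values are given where they change a call. Eed deficient replicate 3 stood apart from the other Eed deficient arrays in fibroblast and macrophage markers, and Eed deficient cells differed in the genes of chromosome 6 and of the distal end of chromosome 14. Results that rest on these are given with and without them. The gene lists were chosen with earlier results of these data known, and some lists share members. Their shares beside those of all genes are therefore a description. The pluripotency factors that define ES cells were strongly expressed in both mutants, with mean signals of 2448 and 1887 for Pou5f1 and 1805 and 1728 for Nanog in Ring1B and Eed deficient cells.

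Eed matched the labels on every array, while the probe sets of Rnf2 did not all go the same way. Eed measured 1462, 1496 and 1969 in the 3 Ring1B deficient arrays and 37.3, 25.0 and 51.1 in the 3 Eed deficient arrays, a difference of -5.30 ± 0.24 (SE, adjusted p = 7.0e-08). A dimmer Eed probe set lay near background on all 12 arrays and did not bear on the label. The brightest of the Rnf2 probe sets measured 398, 529 and 476 in Ring1B deficient cells and 679, 973 and 685 in Eed deficient cells. Every Ring1B deficient array therefore lay below every Eed deficient array, with a difference of 0.72 ± 0.16 (adjusted p = 0.026). Wild type cells had a mean Rnf2 signal of 851 ± 124 (SD, n = 3) and double deficient cells 383 ± 18.8. A second bright Rnf2 probe set went the same way, at 304, 340 and 347 against 471, 654 and 468. Its difference was 0.66, with an adjusted p of 0.034 in the limma model over all probe sets. A dim one differed by -0.04 (adjusted p = 0.98). Another dim Rnf2 probe set had the opposite sign, with 60.2 ± 8.27 in Ring1B deficient and 22.3 ± 3.23 in Eed deficient cells. It gave a difference of -1.25 with an adjusted p of 0.0035 over all probe sets, on which scale the brightest one had 0.032. That difference is larger than the one of the brightest probe set, and which part of the gene was deleted is not stated in the labels. The Rnf2 call was lost without array 1 or 3 of the Ring1B deficient cells or array 2 or 3 of the Eed deficient cells, with adjusted p values of 0.053 to 0.085, and with each array centred on its median, with the mean of the gene's probe sets or with the 6 compared arrays alone (0.074 to 0.97).

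More genes were higher than lower in Eed deficient cells. Of the 13985 genes tested, 471 were called higher in Eed deficient cells (3.37%) and 155 were called lower (1.11%). At a change of 2-fold or more the counts were 247 and 32. The median difference over all tested genes was 0.05. With the replicate number as a block the counts were 1142 higher (8.17%) and 564 lower (4.03%). Single arrays moved the counts: they were 143 higher and 43 lower without Ring1B deficient replicate 3, 171 and 49 without Eed deficient replicate 3, 290 and 87 without Eed deficient replicate 2, and 374 and 87 without Ring1B deficient replicate 2. The lower count also fell to 92 without Eed deficient replicate 1, to 99 without double deficient replicate 1 and, without double deficient replicate 3 or Ring1B deficient replicate 1, to 104.

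**Figure D1:**
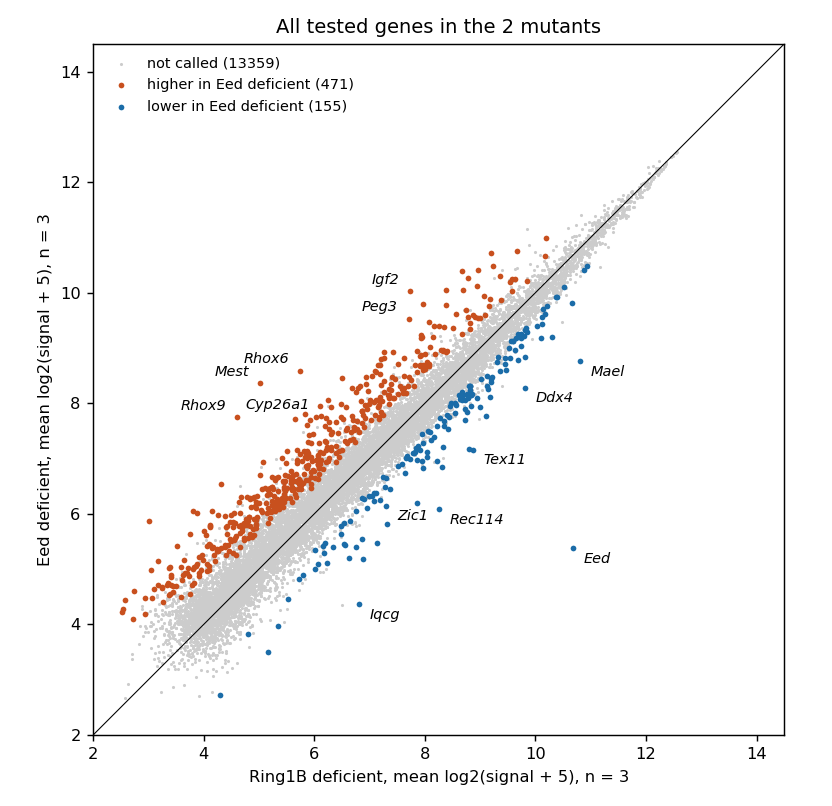
Each point is 1 of 13985 genes, with the mean log2(signal + 5) of the 3 Ring1B deficient arrays on the x axis and that of the 3 Eed deficient arrays on the y axis; the line marks equal values. The 471 orange genes were called higher and the 155 blue genes lower in Eed deficient cells, with Eed itself farthest below the line and Mest and the Rhox genes farthest above it.

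A group of germline genes was lower in Eed deficient than in Ring1B deficient cells. Of 33 tested genes of germline RNA and the piRNA pathway, which silences transposons in germ cells, 9 were called lower (27.3%, against 1.11% of all genes) and 0 were called higher. The list went both ways, with 19 negative and 14 positive differences. Dppa3 and Tdrd7 rose by 1.55 and 1.38 without being called. The median difference of the list was -0.28, beside 0.05 for all genes. With the block 12 were called lower and 3 higher, where 4.03% of all genes were lower and 8.17% higher. Of 32 genes of meiotic chromosomes, 2 were called lower (6.25%) and 1 higher (3.12%, beside 3.37% of all genes), with a median of -0.22. With the replicate block 9 were lower and 1 higher. Taking both lists, 11 genes were called lower. Their 3 Ring1B deficient arrays lay above their 3 Eed deficient arrays, as they did for 155 of the 155 genes called lower, so this separation comes with the call. Every Ring1B deficient array also lay above every wild type array for 11 of the 11, beside 65 of the 155 genes called lower (41.9%) and 11.9% of all tested genes. The Eed deficient arrays overlapped the wild type arrays for 6 (54.5%), beside 23.9% of the genes called lower and 69.6% of all tested. Every double deficient array lay above every Eed deficient array for 7 (63.6%), beside 27.7% of the genes called lower and 15.4% of all tested. These shares are a description, since the call selects genes that are high in Ring1B deficient and low in Eed deficient cells.

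For several of these genes the DNA just around the start site is shown, because the Pcgf6 variant of the complex holds proteins that bind 2 known motifs. The E-box CACGTG, which reads the same on both strands, is bound by Max and its partners, and TCCCGC or its reverse complement GCGGGA is bound by E2f6 and other E2f proteins. The sequences are those RefSeq lists for assembly GRCm38.p6, 250 bases before to 50 after the start site, 5′ to 3′ on the strand of the gene, with matches to either motif in capitals. The first 5 are called genes that hold the E-box, and the last 2, Tdrkh and Hormad2, are called genes that hold neither motif.
Mael, chr1:166238695-166238994, minus strand: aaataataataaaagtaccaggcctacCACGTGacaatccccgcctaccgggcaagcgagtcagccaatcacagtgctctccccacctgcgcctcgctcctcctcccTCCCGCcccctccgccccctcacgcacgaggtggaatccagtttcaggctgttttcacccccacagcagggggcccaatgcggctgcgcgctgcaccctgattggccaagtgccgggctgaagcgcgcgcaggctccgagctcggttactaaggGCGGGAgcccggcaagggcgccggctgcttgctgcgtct
Ddx4, chr13:112652261-112652560, minus strand: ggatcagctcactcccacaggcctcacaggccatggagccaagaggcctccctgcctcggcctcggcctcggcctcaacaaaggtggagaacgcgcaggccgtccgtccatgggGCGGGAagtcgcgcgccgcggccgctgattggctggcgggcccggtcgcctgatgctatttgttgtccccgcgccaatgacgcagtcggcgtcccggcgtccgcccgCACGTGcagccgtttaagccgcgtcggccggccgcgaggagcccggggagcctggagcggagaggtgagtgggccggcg
Mov10l1, chr15:88982744-88983043, plus strand: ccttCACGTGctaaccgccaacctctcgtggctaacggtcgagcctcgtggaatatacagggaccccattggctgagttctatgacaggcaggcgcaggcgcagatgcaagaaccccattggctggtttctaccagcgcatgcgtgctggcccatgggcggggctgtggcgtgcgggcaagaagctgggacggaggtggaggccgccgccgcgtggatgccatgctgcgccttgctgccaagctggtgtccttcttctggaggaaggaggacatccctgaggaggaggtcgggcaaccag
Slc25a31, chr3:40708621-40708920, plus strand: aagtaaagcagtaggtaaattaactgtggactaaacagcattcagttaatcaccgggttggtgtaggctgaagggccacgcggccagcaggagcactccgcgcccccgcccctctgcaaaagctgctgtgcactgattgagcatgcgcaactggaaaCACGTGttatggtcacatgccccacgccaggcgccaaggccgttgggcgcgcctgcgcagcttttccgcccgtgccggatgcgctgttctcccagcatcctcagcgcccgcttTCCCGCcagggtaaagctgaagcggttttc
Stk31, chr6:49395289-49395588, plus strand: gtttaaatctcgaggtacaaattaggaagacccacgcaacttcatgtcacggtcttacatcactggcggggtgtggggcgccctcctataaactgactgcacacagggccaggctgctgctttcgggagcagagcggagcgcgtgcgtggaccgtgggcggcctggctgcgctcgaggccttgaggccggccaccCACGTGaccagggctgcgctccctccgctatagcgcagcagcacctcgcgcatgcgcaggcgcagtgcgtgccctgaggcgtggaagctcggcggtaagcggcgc
Tdrkh, chr3:94412994-94413293, plus strand: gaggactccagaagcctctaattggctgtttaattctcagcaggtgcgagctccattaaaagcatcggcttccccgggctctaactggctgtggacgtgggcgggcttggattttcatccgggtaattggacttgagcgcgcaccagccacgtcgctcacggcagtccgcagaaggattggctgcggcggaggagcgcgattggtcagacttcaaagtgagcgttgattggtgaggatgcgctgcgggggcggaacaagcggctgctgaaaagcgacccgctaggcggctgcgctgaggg
Hormad2, chr11:4441033-4441332, minus strand: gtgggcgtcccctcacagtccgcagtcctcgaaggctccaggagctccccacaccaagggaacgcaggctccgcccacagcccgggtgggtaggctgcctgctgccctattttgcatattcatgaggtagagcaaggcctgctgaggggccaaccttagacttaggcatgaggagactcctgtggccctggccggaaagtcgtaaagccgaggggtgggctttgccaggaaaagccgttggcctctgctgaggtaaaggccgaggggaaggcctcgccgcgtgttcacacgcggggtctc

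The E-box was found in the windows of 6 of the 8 called germline genes that have an entry in the promoter table (75.0%), which are Mael, Ddx4, Mov10l1, Stk31, Slc25a31 and Ddx25. It was found in 10 of 45 listed germline genes that were not called (22.2%) and in 1134 of the 11208 tested genes with an entry (10.1%). Among all genes called lower the share was 20 of 124 (16.1%), and among all called higher 31 of 370 (8.38%). The first base of the E-box lies at -223 from the start site in Mael, at -29 in Ddx4, at -246 in Mov10l1, at -93 in Slc25a31 and at -55 in Stk31. The E2f motif was held by 4 of the 8 called germline genes, by 18 of the 45 that were not called and by 34.5% of tested genes. The called germline genes thus lay close to the other germline genes in this motif. Both motifs contain the letter pair CG. The median number of CG pairs in a window was 24.5 for the called germline genes and 17.0 for those not called. Whether this difference accounts for the E-box shares was not tested. A match describes the letters only, and the genes were grouped by their measured difference.

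Mael, a protein of the nuage granules in which piRNAs are made, had the lowest adjusted p of the germline genes. It measured 1662, 1954 and 1766 in Ring1B deficient cells and 403, 508 and 386 in Eed deficient cells, a difference of -2.05 ± 0.16 (adjusted p = 2.5e-05). Wild type cells had 221 ± 43.9 and double deficient cells 1185 ± 133, so Eed deficient cells lay nearest to wild type. Ddx4, the Vasa RNA helicase that marks germ cells, measured 849, 974 and 862 in Ring1B deficient cells and 288, 406 and 247 in Eed deficient cells, a difference of -1.53 ± 0.22 (adjusted p = 0.0020). Its wild type mean of 331 ± 96.5 lay within the Eed deficient values, and the double deficient mean was 716 ± 91.6. Mov10l1, the helicase that feeds transcripts into piRNA production, measured 202, 242 and 238 against 57.2, 90.8 and 60.3, a difference of -1.67 ± 0.23 (adjusted p = 0.0017).

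Tex11, an X-linked gene needed for meiotic recombination, measured 466, 376 and 561 in Ring1B deficient cells and 126, 134 and 154 in Eed deficient cells (-1.71 ± 0.24, adjusted p = 0.0019). Piwil2, a Piwi protein that carries piRNAs, measured 267, 237 and 229 against 108, 120 and 98.4 (-1.13 ± 0.14, adjusted p = 0.0010). Rnf17, a Tudor domain protein, measured 521, 509 and 659 against 298, 319 and 285 (-0.89 ± 0.13, adjusted p = 0.0030). These 6 genes kept their call when any of the 12 arrays was left out, with no adjusted p above 0.019. The remaining called members did not: Tdrkh (-0.94), Stk31 (-1.27, on chromosome 6), Ddx25 (-0.65), Hormad2 (-1.13) and Slc25a31 (-1.34) each lost the call without array 3 of the Ring1B deficient cells or array 3 of the Eed deficient cells. For these 5 genes the adjusted p values where the call was lost ran from 0.053 to 0.21. Ring1B deficient replicate 1 also mattered for Stk31 and Slc25a31, Ring1B deficient replicate 2 for Hormad2 and Slc25a31, and Eed deficient replicate 1 for all but Tdrkh, while Slc25a31 depended further on wild type replicate 2 and double deficient replicates 1 and 3. The Slc25a31 call was also lost under 7 other settings (adjusted p of 0.052 to 0.077), among them quantile normalization, centring on the median and no filter, and those of Stk31 and Ddx25 with the 6 compared arrays alone (0.054 and 0.073). The piRNA list held 5 calls without Eed deficient replicate 3, and 5 without Ring1B deficient replicate 3. Hsf2bp, a meiotic recombination factor and the 1 higher call of both lists, rose by 1.13 ± 0.19 (adjusted p = 0.0053), from 121, 148 and 160 in Ring1B deficient to 306, 369 and 283 in Eed deficient cells, beside 448 ± 82.4 in wild type cells; with the mean of its probe sets the adjusted p was 0.053.

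**Figure D2:**
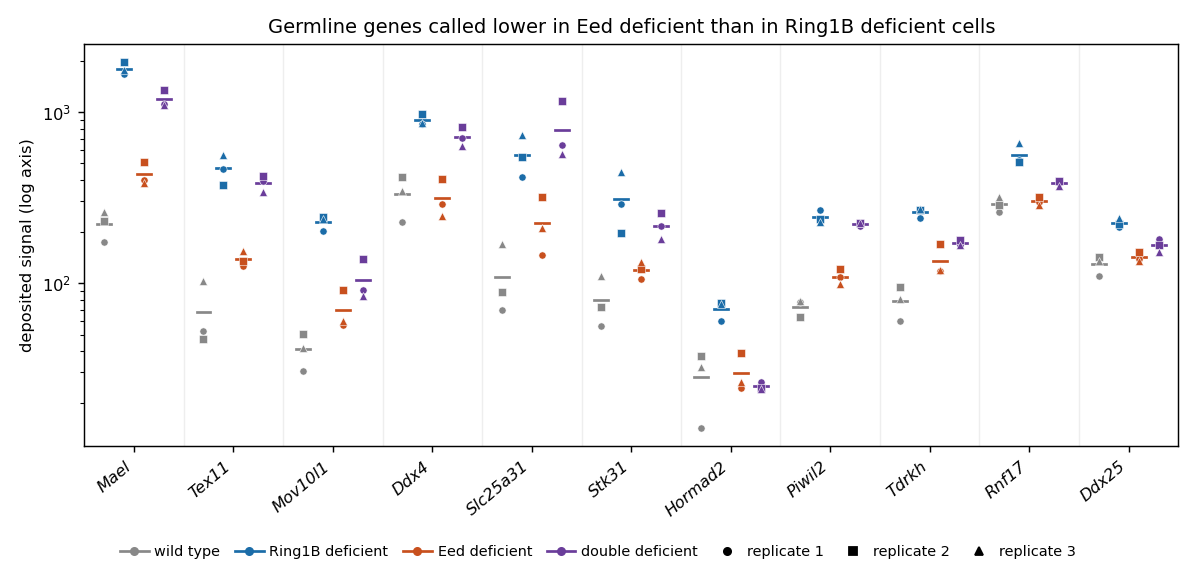
Deposited signals on a log axis of the 11 germline and meiotic genes called lower in Eed deficient cells, with 1 point for each of the 12 arrays, the shape giving the replicate number, and a bar at each genotype's mean. The Ring1B deficient points lie above the Eed deficient points, as for 155 of the 155 genes called lower; Mael spans 1662 to 1954 in Ring1B deficient and 386 to 508 in Eed deficient cells.

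Outside the germline and meiotic lists, the genes with the largest falls included further genes of testis and meiosis. Rec114, a factor for meiotic double-strand breaks, measured 232, 324 and 363 in Ring1B deficient cells and 39.4, 81.2 and 76.1 in Eed deficient cells (-2.18 ± 0.35, adjusted p = 0.0041). Boll, a germ cell RNA-binding protein, measured 137, 128 and 139 against 34.7, 49.2 and 35.1 (-1.66 ± 0.22, adjusted p = 0.0015). Other probe sets of Boll differed less, by -0.76, -0.77 and -1.03. Rhox13, a testis-expressed homeobox gene on the X chromosome, measured 362, 471 and 496 against 97.0, 194 and 144 (-1.62 ± 0.23, adjusted p = 0.0020), with 587 ± 45.1 in double deficient cells. In wild type cells Rec114, Boll and Rhox13 had 155 ± 82.8, 34.2 ± 14.1 and 95.5 ± 23.4. Iqcg, a component of motile cilia and sperm tails, fell by 2.44, from 108 ± 14.8 to 15.8 ± 3.89 (SE 0.27, adjusted p = 5.2e-04), and was at 5.66 ± 3.52 in double deficient cells. Gpa33, a cell-surface antigen of the gut epithelium, fell by 1.71 (SE 0.26, adjusted p = 0.0031). Sox15, a Sox factor expressed in ES cells, fell from 157 ± 35.4 to 51.9 ± 9.92, and Dpys, the pyrimidine-degrading dihydropyrimidinase, fell from 315 ± 44.2 to 112 ± 24.9 (adjusted p = 0.0066 and 0.0011). The calls of these 7 genes were kept with any array left out.

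Rhox6 and Rhox9, placental homeobox genes of the X-linked Rhox cluster, were higher in Eed deficient cells. Rhox9 measured 15.7, 27.9 and 15.8 in Ring1B deficient cells and 134, 307 and 224 in Eed deficient cells, a difference of 3.15 ± 0.35 (adjusted p = 5.2e-04). Rhox6 measured 28.0, 87.9 and 45.1 against 277, 554 and 360, a difference of 2.85 ± 0.36 (adjusted p = 0.0011). Wild type cells had 22.4 ± 3.17 for Rhox9, within the Ring1B deficient values, and 22.1 ± 5.33 for Rhox6, where the Ring1B deficient mean was 53.7 ± 30.8. The double deficient cells had 166 ± 92.8 and 302 ± 122. Rhox5, which lies in the same cluster, had 1513 ± 219 and 1697 ± 441 and was not called (adjusted p = 0.82). Of the 4 tested Rhox genes, 2 were thus called higher and 1, Rhox13, lower.

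Rhox6 and Rhox9 belong to a list of trophoblast genes, which mark the lineage that forms the placenta. Of 33 trophoblast genes tested, 7 were called higher (21.2%, against 3.37% of all genes) and 0 lower, with a median of 0.49. With the replicate block 13 of the 33 were called higher, beside 8.17% of all genes. Itga7, an integrin subunit that binds laminin, measured 6.29, 3.84 and 6.03 in Ring1B deficient cells and 17.4, 32.3 and 35.0 in Eed deficient cells (1.64 ± 0.28, adjusted p = 0.0066). Plac1, an X-linked placental gene, measured 19.7, 24.9 and 21.6 against 45.8, 61.9 and 59.1 (1.16 ± 0.21, adjusted p = 0.0082), and double deficient cells had 142 ± 41.0. Gata2, a transcription factor of trophoblast and blood that lies on chromosome 6, rose by 1.12 ± 0.17 (adjusted p = 0.0027), from 38.9 ± 4.45 to 91.2 ± 17.7. Cdx2, the factor that specifies trophectoderm, was at 23.7 ± 3.36 and 29.6 ± 10.3 and was not called (adjusted p = 0.80). The calls of Itga7, Plac1, Gata2, Rhox6 and Rhox9 were kept with any array left out, and the other called members were the keratins Krt8 and Krt19, which the epithelial list also holds.

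Among epithelial genes, simple keratins and junction proteins were called. Of 34 epithelial genes, 6 were called higher (17.6%, beside 3.37% of all genes) and 0 lower, with a median of 0.44. With the block 16 of the 34 were called higher, beside 8.17% of all genes. Krt8, a keratin of simple epithelia, measured 501, 857 and 456 in Ring1B deficient cells and 1276, 2029 and 1811 in Eed deficient cells (1.52 ± 0.34, adjusted p = 0.026). Krt19, another simple keratin, measured 159, 209 and 75.8 against 340, 519 and 381 (1.54 ± 0.40, adjusted p = 0.046). Krt18, the partner of Krt8, overlapped between the genotypes at 717, 1681 and 628 against 1486, 3418 and 2321, was not called (adjusted p = 0.13), and reached an adjusted p of 1.8e-04 with the block. In each genotype replicate 2 was the highest for these 3 keratins. Dsc2, a desmosomal cadherin, rose by 1.86 ± 0.37 (adjusted p = 0.014), and by 1.08 on another probe set. Cldn4, a tight-junction claudin, rose by 1.49 ± 0.33 (adjusted p = 0.022), and Emp1, a membrane protein whose gene is on chromosome 6, by 1.22 ± 0.16 (adjusted p = 0.0013). Cdh1, the E-cadherin of ES cells, was at 2422 ± 303 and 3072 ± 165 and was not called (adjusted p = 0.074, and 0.0094 with the block). Of the called epithelial genes, Emp1 kept its call with any array left out, but not with the mean of its probe sets (adjusted p = 0.10). The calls of Krt8 and Cldn4 were lost without Ring1B deficient replicate 3, Eed deficient replicate 2 or Eed deficient replicate 3, that of Krt8 also without Ring1B deficient replicate 1, and that of Dsc2 without Ring1B deficient replicate 3, at adjusted p values of 0.067 to 0.12. Krt19 and Dsp lost theirs under 8 and 10 of the 12 omissions, including each of Ring1B deficient replicates 1 and 3 and all 3 Eed deficient arrays, with adjusted p values of up to 0.20. Krt19 also lost it under 7 other settings (0.051 to 0.073), among them quantile normalization, centring and no filter, Dsp under 5 (0.064 to 0.13), and Cldn4 with the 6 compared arrays alone (0.051). The list held 1 call without Ring1B deficient replicate 3, 2 without Eed deficient replicate 2 or 3, and 3 without Ring1B deficient replicate 1.

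The largest rise of all called genes was that of an imprinted gene, a gene expressed from 1 parental allele. Mest, a paternally expressed gene on chromosome 6, measured 24.4, 35.8 and 23.1 in Ring1B deficient cells and 361, 269 and 348 in Eed deficient cells, a difference of 3.35 ± 0.22 (adjusted p = 4.0e-06). Wild type cells had 485 ± 108 and double deficient cells 31.7 ± 7.61, so both lines with a targeted Ring1B lay far below wild type and the Eed deficient line lay near it. Igf2, the paternally expressed fetal growth factor, measured 194, 289 and 160 against 694, 1474 and 1101 (2.30 ± 0.40, adjusted p = 0.0070), with 103 ± 65.5 in wild type and 1570 ± 693 in double deficient cells. Another Igf2 probe set differed by 1.42. Peg3, a paternally expressed zinc finger gene, measured 259, 211 and 153 against 591, 779 and 864 (1.83 ± 0.19, adjusted p = 3.9e-04). The wild type mean of Peg3 was 272 ± 32.9 and its double deficient mean 812 ± 57.9.

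Plagl1, a zinc finger regulator of other imprinted genes, measured 219, 141 and 149 in Ring1B deficient cells and 385, 554 and 527 in Eed deficient cells (1.51 ± 0.18, adjusted p = 8.0e-04). Ndn, the paternally expressed necdin gene, measured 186, 149 and 159 against 363, 305 and 390 (1.07 ± 0.13, adjusted p = 0.0010). All of these 5 genes kept their call with any array left out. Their 3 Eed deficient arrays lay above their Ring1B deficient arrays, which is a description, since the call favours genes whose arrays lie apart. For Mest, Igf2 and Peg3 the rule for naming the largest rises also required it. Nap1l5, also on chromosome 6, and Ddc rose by 1.44 ± 0.30 and 0.87 ± 0.21 (adjusted p = 0.019 and 0.030), and Mcts2 fell by 0.81 (SE 0.17, adjusted p = 0.019). Nap1l5 lost its call without array 2 or 3 of the Ring1B deficient cells or array 3 of the Eed deficient cells, Ddc without array 1 or 2 of the Ring1B deficient cells or array 1 or 3 of the Eed deficient cells, and Mcts2 without array 3 of the Ring1B deficient cells or array 2 of the Eed deficient cells, at adjusted p values of 0.053 to 0.12. With the 6 compared arrays alone all 3 calls were lost (0.074 to 0.089), and that of Ddc also with centring (0.055). Over the list, 7 of 39 imprinted genes were called higher (17.9%) and 1 lower (2.56%), beside 3.37% and 1.11% of all genes. The median difference of 0.09 lay near the 0.05 of all genes. Cdkn1c, a maternally expressed inhibitor of the cell cycle, was at 453 ± 90.6 and 305 ± 38.2 and was called with the block only (adjusted p = 0.018, against 0.11 without). The block called 9 of the 39 imprinted genes higher and 5 lower, beside 8.17% and 4.03% of all genes.

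**Figure D3:**
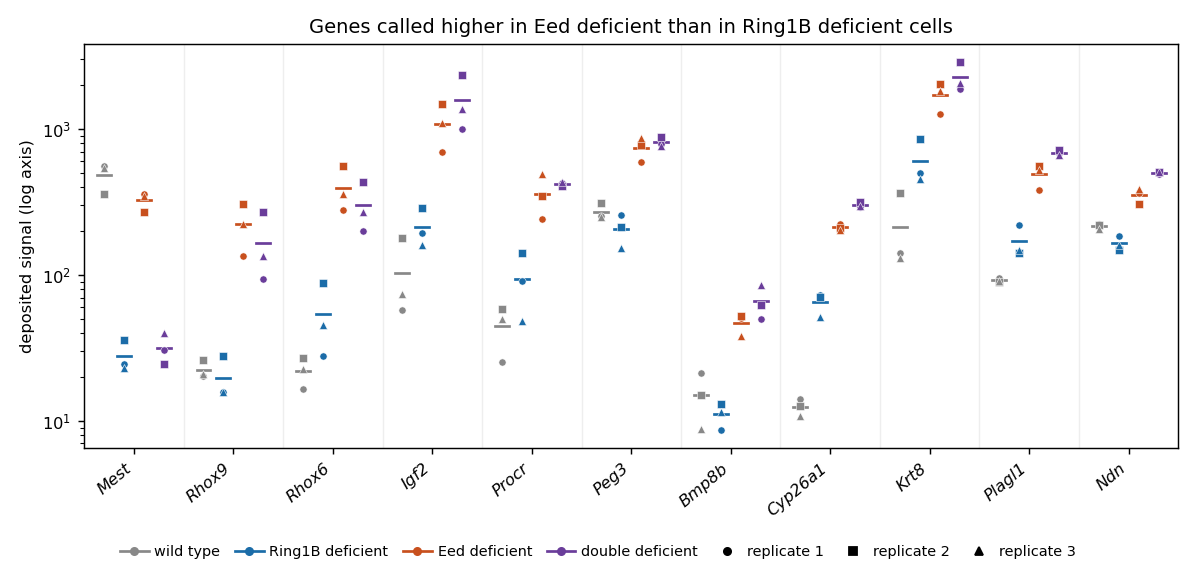
Deposited signals on a log axis of 11 named genes called higher in Eed deficient cells, chosen from the genes described in the text, with 1 point for each of the 12 arrays, the shape giving the replicate number, and a bar at each genotype's mean. Mest is the one gene here whose double deficient points (mean 31.7) lie with the Ring1B deficient points (mean 27.8); for Igf2, Peg3, Plagl1 and Ndn the double deficient mean lies above the Eed deficient mean.

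Among other genes with the largest rises were 3 X-linked genes of testis or little known function. Tex13b, a testis gene, measured 66.1, 57.3 and 67.9 in Ring1B deficient cells and 309, 201 and 224 in Eed deficient cells (1.84 ± 0.21, adjusted p = 7.1e-04), with 7.75 ± 3.36 in wild type and 400 ± 37.4 in double deficient cells. Gm364 rose by 2.08 ± 0.31 (adjusted p = 0.0027) and AU015836 by 1.81 ± 0.28 (adjusted p = 0.0033). With Rhox6 and Rhox9 this placed on the X chromosome 5 of the 12 largest rises among called genes without overlap whose higher mean was above 97.0, the median of that mean over tested genes. The chromosome held 3 lower calls and 23 higher calls among 456 tested genes. Its share of higher calls was 5.04%, not far from the 3.37% of all genes, of which 1.11% were lower. Procr, the endothelial protein C receptor, measured 91.4, 141 and 48.4 against 240, 347 and 492 (1.94 ± 0.35, adjusted p = 0.0085). Ccnd2, cyclin D2, which is on chromosome 6, measured 304, 226 and 216 against 785, 807 and 1077 (1.82 ± 0.30, adjusted p = 0.0047). Pmp22, a myelin and epithelial membrane protein, rose by 1.97 ± 0.39 (adjusted p = 0.013), and its call was lost without array 3 of the Ring1B deficient cells or array 3 of the Eed deficient cells (adjusted p of 0.053 to 0.071); the calls of the other 5 genes were kept with any array left out.

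Endoderm genes, which Polycomb complexes hold down in ES cells, had median differences from wild type of 1.33 in Ring1B deficient and 1.42 in Eed deficient cells, values that share the wild type arrays, and 1 of 18 was called between the mutants. Gata4 and Gata6, which drive primitive endoderm, had 72.5 ± 13.3 and 127 ± 22.8 in Ring1B deficient cells and 78.1 ± 11.1 and 153 ± 23.8 in Eed deficient cells, against 20.1 ± 4.59 and 22.6 ± 4.14 in wild type cells. Neither was called between the mutants (adjusted p = 0.83 and 0.49). Sox17, an endoderm Sox factor, measured 160, 196 and 227 in Ring1B deficient cells and 373, 320 and 380 in Eed deficient cells (0.87 ± 0.18, adjusted p = 0.015), with 14.1 ± 3.46 in wild type and 758 ± 87.4 in double deficient cells. Its call was lost without array 1 of the Ring1B deficient cells or array 3 of the Eed deficient cells (adjusted p of 0.052 to 0.067). The share called higher, 5.56%, is near the 3.37% of all genes. With the block Sox17, Cited1 and Foxa2 were called (adjusted p = 0.0017, 9.5e-04 and 0.038). Of 25 genes of visceral endoderm uptake and carriage, the proteins with which that tissue feeds the embryo, Bmp2 and Fgg were called higher. This is 8% of the list, beside 3.37% of all genes, while 0 genes were called lower. With the block 5 of the 25 were higher, beside 8.17% of all genes. Bmp2, a signal made by visceral endoderm, measured 22.4, 23.0 and 16.7 against 44.4, 59.7 and 49.3 (1.13 ± 0.21, adjusted p = 0.0096, and 0.053 without Ring1B deficient replicate 3). Fgg, a fibrinogen chain, was at most 12.9 in Ring1B deficient cells and averaged 31.0 ± 20.4 in Eed deficient cells (1.64 ± 0.41, adjusted p = 0.040, up to 0.16 with an array left out, and 0.051 to 0.11 under 4 other settings that also ended the call). Afp, the fetal carrier protein, spread widely within both mutants, at 34.7, 201 and 11.5 against 89.1, 706 and 28.6, and was not called (adjusted p = 0.49). Replicate 2 was the highest in both, and over the whole list the medians of Eed deficient replicates 1, 2 and 3 above the Ring1B deficient mean were 0.12, 1.30 and -0.51.

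Basement membrane genes, whose products endoderm lays down as a sheet of laminin and collagen IV, included higher genes in Eed deficient cells that depended on single arrays. Of 20 tested, 6 were called higher (30.0%, beside 3.37% of all genes) and 0 lower, with a median of 0.43. Lama1, a laminin chain, measured 407, 503 and 393 in Ring1B deficient cells and 902, 741 and 634 in Eed deficient cells (0.79 ± 0.16, adjusted p = 0.017). Col4a1, a collagen IV chain, measured 1164, 1440 and 956 against 1908, 2273 and 1909 (0.79 ± 0.17, adjusted p = 0.024), and Col4a2 measured 503, 743 and 409 against 876, 1172 and 905 (0.86 ± 0.21, adjusted p = 0.034). In double deficient cells the means of Lama1, Col4a1 and Col4a2 were higher again, at 1301 ± 108, 2971 ± 444 and 1640 ± 317, and in wild type cells they were 58.6 ± 10.1, 171 ± 35.2 and 84.5 ± 12.1. Lamb1, Lamc1 and Col4a5 were the other called members, with differences of 0.61, 0.58 and 1.12, and a second Col4a5 probe set differed by -0.08. None of these 6 calls held under every omission, with adjusted p values of up to 0.18: the list held 0 calls without Ring1B deficient replicate 3, 1 without Ring1B deficient replicate 1, 1 without Eed deficient replicate 3 and 3 without Eed deficient replicate 1 or 2 or double deficient replicate 3. The median of the list lay between 0.32 and 0.51 with 1 array left out, and with each array centred on its median 1 of 20 was called. With the 6 compared arrays alone none of the 6 calls held, the adjusted p values of these and other settings that ended a call reaching 0.34. At an unadjusted p under 0.05, 10 of the 20 were higher in the full model.

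Hox cluster genes, the body-axis genes that are textbook targets of both complexes, went both ways between the mutants. Of 26 tested, 13 differences were positive and 13 negative, the median difference was 0.00, and 1 was called, as higher (3.85%, beside 3.37% of all genes). That gene, Hoxb9, measured 11.7, 14.7 and 16.1 in Ring1B deficient cells and 33.1, 34.8 and 38.0 in Eed deficient cells (1.08 ± 0.25, adjusted p = 0.028), and its call was lost when any of these 6 arrays was left out (adjusted p of 0.058 to 0.11) and with 1 in place of 5 added to the signal (0.055). Against wild type the median Hox difference was 1.44 in Ring1B deficient and 1.54 in Eed deficient cells, values that share the wild type arrays. Hoxa9, a posterior Hox gene, was at 166 ± 10.3 and 107 ± 14.7 with 4.69 ± 3.93 in wild type cells, and the mutants were not called apart (adjusted p = 0.17). Hoxb13 was at 38.4 ± 13.5 and 15.1 ± 7.41 and was called lower with the block only (adjusted p = 0.042, against 0.16 without).

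Of 33 genes of mesoderm and primitive streak, 2 were called higher (6.06%) and 1 lower (3.03%), beside 3.37% and 1.11% of all genes, with a median of 0.20. The higher ones were Gata2, described above, and Tbx20. Tbx20, a heart T-box gene, rose by 1.00 ± 0.23 (adjusted p = 0.028) and Mesp2, a somite gene, fell by 0.70 (SE 0.17, adjusted p = 0.031), and both calls were lost without array 2 or 3 of the Ring1B deficient cells or array 3 of the Eed deficient cells, among others, at adjusted p values of up to 0.11, and with the 6 compared arrays alone or under other settings (0.050 to 0.082). Of 31 neuroectoderm and neuronal genes 1 was called, and it was lower (3.23%, beside 1.11% of all genes). This was Zic1, a zinc finger factor of the dorsal neural tube, which measured 182, 156 and 124 in Ring1B deficient cells and 73.7, 57.2 and 67.6 in Eed deficient cells (-1.15 ± 0.17, adjusted p = 0.0027). Its wild type mean was 9.78 ± 1.42 and its double deficient mean 184 ± 10.5, and the call was kept with any array left out. With the block 1 of the 31 was higher and 3 were lower, beside 8.17% and 4.03% of all genes. Tubb3, neuronal tubulin, gained a higher call with it (adjusted p = 2.7e-04) and Zic5, on distal chromosome 14, a lower one (adjusted p = 0.0020).

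Genes of retinoic acid handling included one of the most clearly separated genes. Cyp26a1, the enzyme that degrades retinoic acid, measured 73.3, 70.9 and 51.4 in Ring1B deficient cells and 225, 209 and 202 in Eed deficient cells (1.64 ± 0.16, adjusted p = 2.4e-04). Its means were 12.5 ± 1.66 in wild type and 303 ± 14.3 in double deficient cells, so the 4 genotypes did not overlap on any array, and the adjusted p stayed at or below 0.0024 with any array left out. Crabp2, which delivers retinoic acid to its nuclear receptors, rose by 0.85 ± 0.19 (adjusted p = 0.026), and the call was lost without array 1 or 3 of the Ring1B deficient cells or array 2 or 3 of the Eed deficient cells (adjusted p of 0.056 to 0.12). With the 6 compared arrays alone its adjusted p was 0.075. Of 17 genes of this list 2 were called, both higher (11.8%, beside 3.37% of all genes), and the median was 0.08.

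Of 45 signalling ligands, 3 were called higher (6.67%, beside 3.37% of all genes) and 0 lower. With the block 7 were higher and 2 lower, beside 8.17% and 4.03% of all genes, and the lower count is near that background. Bmp8b, a bone morphogenetic protein known from germ cell induction, measured 8.70, 12.9 and 11.6 in Ring1B deficient cells and 50.7, 52.5 and 37.9 in Eed deficient cells (1.69 ± 0.26, adjusted p = 0.0031), and kept its call with any array left out. Wnt4, a Wnt ligand, rose by 1.69 ± 0.44 (adjusted p = 0.044), a call lost under 8 of the 12 omissions with adjusted p values of up to 0.18 and under 6 other settings (0.052 to 0.11). Inhbb, which encodes an activin subunit, measured 441, 188 and 380 against 197, 49.2 and 190 and was called lower with the block only (adjusted p = 0.0014, against 0.13 without). Replicate 2 was the lowest array of both mutants for Inhbb. The list held 1 call without Ring1B deficient replicate 3 and 5 without Eed deficient replicate 2. Of 8 inhibitors of cyclin-dependent kinases 1 was called higher (12.5%, beside 3.37% of all genes). This was Cdkn2b, which measured 74.3, 71.4 and 62.2 against 96.9, 226 and 404 (1.52 ± 0.35, adjusted p = 0.028). The call of Cdkn2b was lost without any Ring1B deficient array or Eed deficient replicate 2 or 3 (adjusted p of 0.054 to 0.12) and with the 6 compared arrays alone (0.11). The block called 3 of the 8 higher and 1 lower, beside 8.17% and 4.03% of all genes.

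Pluripotency genes were not called apart in either direction. Of 34 tested with limma, 0 passed, 2 were higher and 3 lower at an unadjusted p under 0.05, and the median was -0.08. Pou5f1, the Oct4 gene, measured 2196, 2471 and 2676 in Ring1B deficient cells and 1949, 1837 and 1877 in Eed deficient cells, a difference of -0.37 ± 0.11 with adjusted p = 0.082 and, with the block, 0.017. Nanog differed by -0.06 ± 0.13 (adjusted p = 0.87) and Sox2 by -0.19 ± 0.21 (adjusted p = 0.71). The block called 1 of the 34 higher and 4 lower, beside 8.17% and 4.03% of all genes. The higher one was Dppa3 (adjusted p = 2.3e-04), an oocyte and germ cell gene on chromosome 6 at 155 ± 88.0 against 479 ± 313. Klf5, one of the 4 lower and a naive pluripotency factor on distal chromosome 14, measured 767, 388 and 1003 against 464, 195 and 337 (adjusted p = 0.0024 with the block, 0.13 without).

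Among Polycomb genes, the targeted genes and Pcgf6 were called. Of 13 tested genes of Polycomb repressive complex 2 Eed was the 1 called without the block (7.69% lower, beside 1.11% of all genes). Suz12, its scaffold, was at 702 ± 49.1 in Ring1B deficient and 632 ± 75.6 in Eed deficient cells (adjusted p = 0.58). Ezh2, its methyltransferase, whose gene is on chromosome 6, was at 1167 ± 105 and 1489 ± 119, with adjusted p = 0.16 and, with the block, 0.043. Of 26 genes of Polycomb repressive complex 1, Rnf2 was called higher and Pcgf6 lower (3.85% each way, beside 3.37% and 1.11% of all genes). The block called 3 of the 26 higher and 1 lower, beside 8.17% and 4.03% of all genes. Pcgf6 measured 846, 805 and 904 in Ring1B deficient cells and 670, 493 and 659 in Eed deficient cells (-0.50 ± 0.13, adjusted p = 0.045), with 778 ± 52.3 in wild type and 626 ± 8.42 in double deficient cells. This call was lost under 10 of the 12 omissions, all but wild type replicate 1 and Eed deficient replicate 1, with adjusted p values of up to 0.17, and under 6 other settings, among them quantile normalization, centring and no filter (0.053 to 0.20). Ring1, the paralogue of Ring1B, was at 44.3 ± 2.94 and 40.6 ± 6.70 (adjusted p = 0.81). Bmi1, a Pcgf subunit, was at 240 ± 15.8 and 296 ± 12.6 with 85.4 ± 13.3 in wild type cells, and was not called between the mutants (adjusted p = 0.28). Of 28 genes of DNA methylation and H3K9 silencing, limma called 0, with 1 higher and 2 lower at an unadjusted p under 0.05. The block called 1 of the 28 higher and 3 lower, beside 8.17% and 4.03% of all genes. The higher one was Tet1, which oxidises methylcytosine, at 920, 388 and 837 against 2070, 746 and 1594 (adjusted p = 5.8e-04 with the block, 0.14 without). The 4 probe sets of Tet1 differed by 0.96, 1.65, 1.47 and 1.01. In the limma model over all probe sets, which has no block, 2 of them were called higher. Usp17la, of a gene family active in 2-cell embryos, was the 1 call among 10 genes of that stage (10%, beside 1.11% of all genes). It was lower by 1.43 (SE 0.35, adjusted p = 0.034), and the call was lost without Ring1B deficient replicate 1 or 3 or any Eed deficient array (adjusted p of 0.072 to 0.14), with no filter or with no intensity trend (0.053). Of 14 housekeeping genes limma called 0, with 0 higher and 2 lower at an unadjusted p under 0.05, and their median was -0.02.

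Fibroblast genes, which are also the markers of the feeder cells that ES cells can be grown on, were higher in Eed deficient cells, most of all on Eed deficient replicate 3. Of 36 tested, 36 had a positive difference, 10 were called higher (27.8%, beside 3.37% of all genes) and 0 lower, and the median was 1.00. With the block 21 were called higher, beside 8.17% of all genes. The medians of Eed deficient replicates 1, 2 and 3 above the Ring1B deficient mean were 0.52, 0.55 and 1.89. Without Eed deficient replicate 3 the median was 0.52 and 4 were called, without Ring1B deficient replicate 3 also 4, and without Eed deficient replicate 2 there were 16. The summed signal of the 36 genes ran from 11811 to 23196 in Eed deficient and from 6701 to 8664 in Ring1B deficient cells, beside 7460 to 9026 in wild type and 21631 to 23561 in double deficient cells. In bulk RNA more cells of a type and more RNA per cell cannot be told apart, and whether feeder cells were used is not given in the sources used here.

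Ccn1, Ccn2, Timp3 and Anxa1 were high on all 3 Eed deficient arrays. Ccn1, a secreted target of the Yap pathway, measured 342, 410 and 255 in Ring1B deficient cells and 931, 1000 and 1250 in Eed deficient cells (1.66 ± 0.23, adjusted p = 0.0020). Timp3, an inhibitor of matrix proteases, measured 49.5, 73.5 and 46.2 against 136, 211 and 282 (1.77 ± 0.26, adjusted p = 0.0023). Other probe sets of Timp3 differed by 0.64, 1.56 and 1.58. Anxa1, a membrane-binding annexin, measured 476, 476 and 530 against 1085, 1117 and 2050 (1.45 ± 0.20, adjusted p = 0.0020). Ccn2, a relative of Ccn1, rose by 1.37 ± 0.22 (adjusted p = 0.0047), and these 4 genes kept their call with any array left out. The collagens followed replicate 3 more closely: Col5a2 measured 105, 91.2 and 61.1 against 189, 144 and 558, and its difference fell from 1.51 to 0.94 without that array, where the call was lost, as it was under 8 other omissions and 6 other settings. Col1a2, on chromosome 6, measured 148, 161 and 85.8 against 238, 292 and 650 (1.45 ± 0.31, adjusted p = 0.019), and its call was lost without array 3 of the Ring1B deficient cells or array 3 of the Eed deficient cells (adjusted p of 0.056 to 0.10), and with the 6 compared arrays alone (0.091).

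Genes of the actin cytoskeleton and contraction were also higher in Eed deficient cells. Of 33 tested, 12 were called higher (36.4%, beside 3.37% of all genes) and 0 lower, with a median of 0.87. With the block 22 were called higher, beside 8.17% of all genes. Without Eed deficient replicate 3 the counts were 7 and 0 with a median of 0.66, and without Ring1B deficient replicate 3 they were 5 and 0. The medians of Eed deficient replicates 1, 2 and 3 were 0.63, 0.72 and 0.87. Ankrd1, a stretch-responsive target of the Yap pathway, measured 105, 123 and 98.3 in Ring1B deficient cells and 254, 347 and 351 in Eed deficient cells (1.49 ± 0.17, adjusted p = 7.1e-04). Tagln, a smooth muscle actin-bundling protein, measured 340, 373 and 278 against 616, 881 and 1233 (1.40 ± 0.25, adjusted p = 0.0074). Cnn2, a calponin, rose by 1.26 ± 0.16 (adjusted p = 0.0011), Vcl, the focal adhesion protein vinculin, by 0.87 ± 0.14 (adjusted p = 0.0038), and Flnc, a filamin gene on chromosome 6, by 1.39 ± 0.21 (adjusted p = 0.0032). These 5 calls were kept with any array left out. All of their Eed deficient arrays lay above their Ring1B deficient arrays, a separation that the call itself favours. Wild type cells had 61.0 ± 8.21 for Ankrd1 and 488 ± 155 for Tagln. Jun, an immediate early gene, rose in the list of ERK response genes by 1.08 ± 0.18 (adjusted p = 0.0046). In that list 2 of 24 were called higher (8.33%, beside 3.37% of all genes) and 0 lower, with a median of 0.04. With the block 7 of the 24 were higher and 1 lower, beside 8.17% and 4.03% of all genes. The lower count is near that background.

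Macrophage markers were raised on the same array. Lyz1, a lysozyme gene, measured 38.2, 10.3 and 19.5 in Ring1B deficient cells and 41.6, 20.2 and 631 in Eed deficient cells, and Lyz2 measured 41.9, 17.3 and 40.5 against 38.3, 25.6 and 357. Both were high on Eed deficient replicate 3 alone among these 6 arrays, and neither was called (adjusted p = 0.31 and 0.46). Double deficient cells had 411 ± 101 and 271 ± 55.6. The summed signal of the 12 tested markers ran from 367 to 1464 in Eed deficient cells, 443 to 517 in Ring1B deficient cells, 345 to 541 in wild type cells and 919 to 1363 in double deficient cells. Of 19 markers on the array 7 were too dim to be tested, among them Ptprc, the pan-leukocyte gene, and Itgam, C1qa and Tyrobp. The median of the list was 0.65, and 0.03 without Eed deficient replicate 3. Csf1r, a macrophage receptor that trophoblast also expresses, was called higher and Laptm5 lower (8.33% each way, beside 3.37% and 1.11% of all genes). Without that array 0 were called, against 2 higher and 1 lower at an unadjusted p under 0.05 with all arrays. The part of other cells in the rise of fibroblast and actin genes was not tested.

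**Figure D4:**
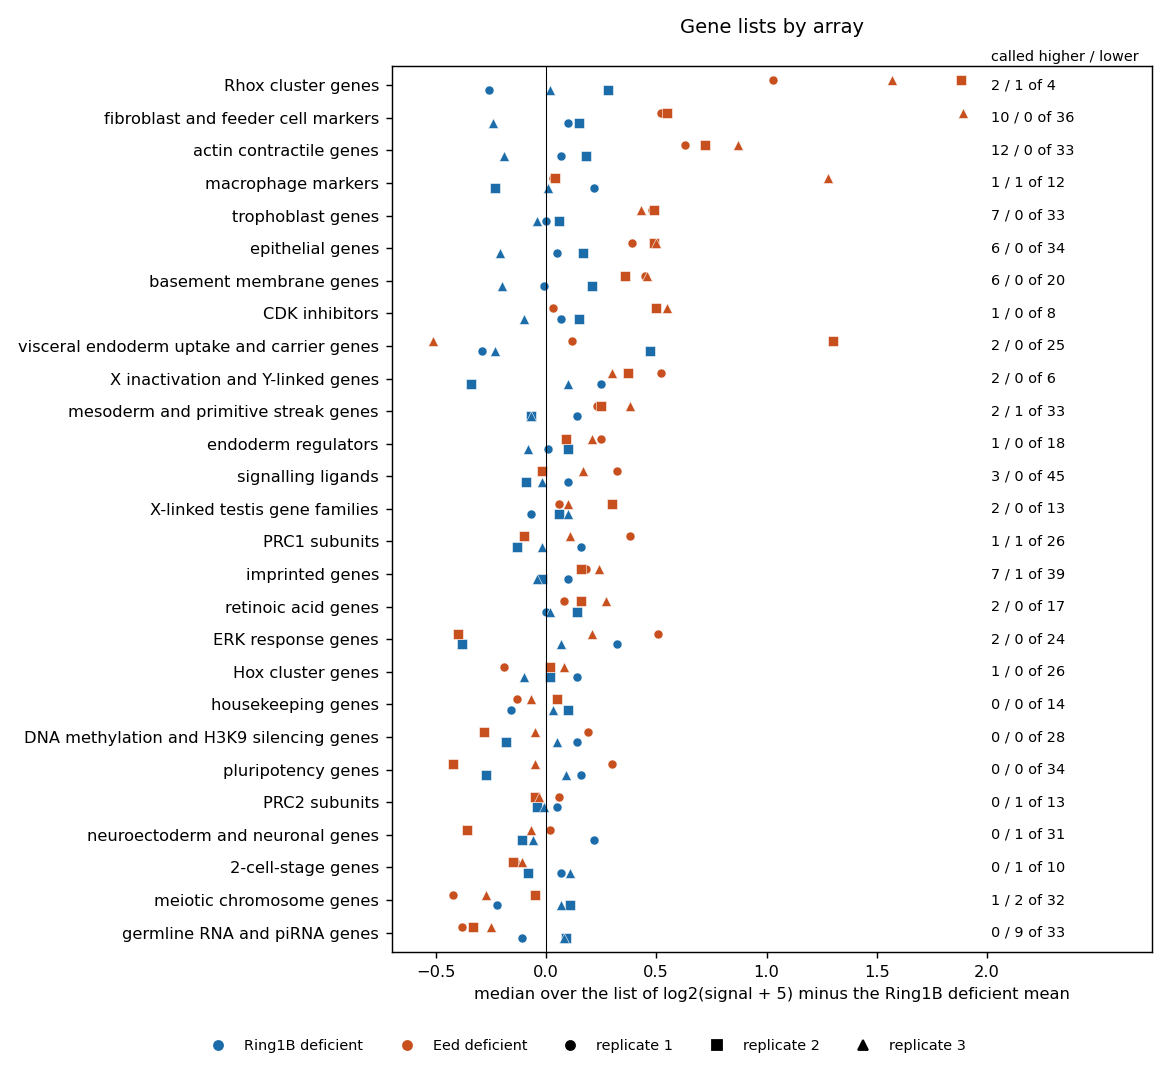
For each of 27 gene lists, the median over the list of log2(signal + 5) minus the Ring1B deficient mean of each gene, on the x axis, for the 3 Ring1B deficient arrays (blue) and the 3 Eed deficient arrays (orange), with shapes for the replicate number; the numbers at the right count genes called higher and lower in Eed deficient cells of those tested. Fibroblast and macrophage markers are set apart by Eed deficient replicate 3 (1.89 and 1.28), visceral endoderm genes by replicate 2 (1.30), while the 3 Eed deficient arrays agree for trophoblast, epithelial and germline RNA genes.

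Chromosome 6 as a whole was higher in Eed deficient cells. Its 689 tested genes had a median difference of 0.33, 83.2% of them were positive, and 96 were called higher (13.9%) and 1 lower, so that 20.4% of all higher calls lay on it. The other chromosomes had medians of -0.02 to 0.11. With each array centred, the median of chromosome 6 was 0.27, 0.29 and 0.28 on the 3 Eed deficient arrays, 0.02 to 0.06 on the double deficient arrays and -0.05 to -0.02 on the wild type arrays. The 96 called genes differed by a median of 0.85, with 58 of them under 2-fold, against a median of 1.05 for the higher calls elsewhere. Mest, Ccnd2, Gata2, Emp1, Flnc, Nap1l5 and Col1a2, named above as higher, and Stk31, named as lower, lie on this chromosome. The number of copies of chromosome 6 in the lines was not tested. Chromosome 1 held 24 lower and 18 higher calls among 792 tested genes, with a median of -0.02. On it lay 15.5% of all lower calls. With each array centred its median was -0.08, -0.04 and -0.08 on the Eed deficient arrays and -0.13 to -0.09 on the wild type arrays. Mael, Boll and Rnf2 lie on chromosome 1, which was not left out in any setting.

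A run of genes at the distal end of chromosome 14 was lower in Eed deficient cells. From Mzt1 to Tmtc4, a run chosen after its values were seen, 47 genes were tested, 43 had a negative difference, and 17 were called lower and 0 higher, with a median of -0.62. The block called 29 lower. The medians of the Eed deficient arrays were -0.67, -0.68 and -0.57 and those of the double deficient arrays -0.55, -0.56 and -0.62, while the wild type arrays lay between -0.14 and -0.10. The 426 other tested genes of the chromosome had a median of 0.00. Mzt1, a small protein of the mitotic spindle poles at the start of the run, had 1100 ± 174 in Ring1B deficient and 578 ± 105 in Eed deficient cells, with 1130 in wild type and 456 in double deficient cells. Klf5, Spry2 and Zic5 lie in the run, and Spry2, an ERK pathway inhibitor, differed by -1.25 with an adjusted p of 0.29 and, with the block, 9.5e-04. Piwil2, Rnf17 and Vcl lie on chromosome 14 outside it. With the genes of chromosomes 6 and 14 left out, which was decided after seeing these medians, 311 genes were called higher and 107 lower, and the lists kept 5 lower calls of 27 in germline RNA, 5 higher of 29 in trophoblast, 3 of 32 in epithelial, 5 of 33 in imprinted, 5 of 19 in basement membrane, 9 of 33 in fibroblast and 8 of 27 in actin genes.

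**Figure D5:**
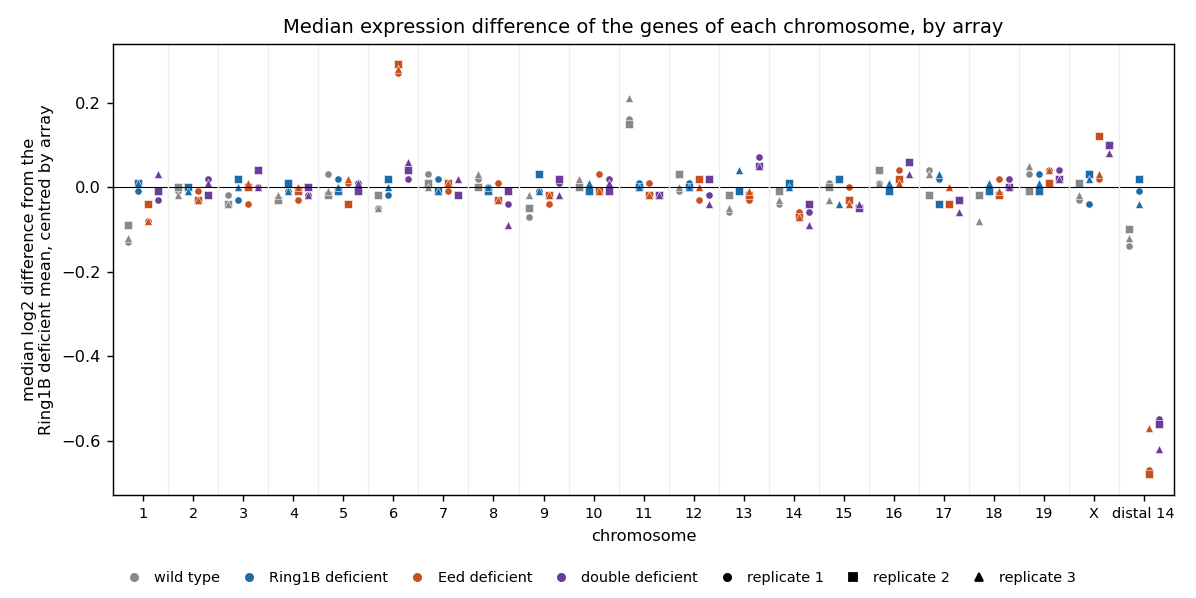
Median over the tested genes of each chromosome of log2(signal + 5) minus the Ring1B deficient mean, centred by array, with 1 point per array coloured by genotype; the last column holds the 47 genes from Mzt1 to Tmtc4 at the end of chromosome 14. The Eed deficient arrays stand out on chromosome 6 (0.27 to 0.29), both lines without Eed on distal chromosome 14 (-0.68 to -0.55), and the wild type arrays on chromosome 11 (0.15 to 0.21).

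Genes of the Y chromosome also differed between the lines. Eif2s3y, a translation factor gene, measured 100, 141 and 115 in Ring1B deficient cells and 222, 431 and 346 in Eed deficient cells (1.41 ± 0.29, adjusted p = 0.017), with 216 ± 75.4 in wild type and 63.8 ± 16.5 in double deficient cells. Uty, a histone demethylase homologue, measured 16.1, 7.99 and 13.6 against 34.4, 26.7 and 60.1 (1.33 ± 0.29, adjusted p = 0.020), with 44.5, 53.8 and 79.2 in wild type and 14.8, 18.4 and 14.8 in double deficient cells. For both genes the lines with a targeted Ring1B had the lower means. Both calls were lost without array 3 of the Ring1B deficient cells or array 3 of the Eed deficient cells, that of Eif2s3y also without array 1 of the Ring1B deficient cells or array 2 of the Eed deficient cells, and that of Uty without Ring1B deficient replicate 2, at adjusted p values of 0.056 to 0.089, and that of Uty with the 6 compared arrays alone (0.072). Xist, the RNA that coats an inactive X chromosome, was at 124 ± 41.9 and 112 ± 39.7 and was not called (adjusted p = 0.86).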

How the data were processed

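RNA of 12 samples of mouse ES cells was hybridized to Affymetrix Mouse 430_2.0 arrays, 3 for each of 4 genotypes. The deposited values are linear signal intensity for 45101 probe sets, computed with MAS5 per the submitters' processing notes; no version or setting is stated in the labels. On the values themselves, each array has a trimmed mean of 100 with 2% left out at each end. Scaling to a common mean cannot show a change in total RNA per cell.

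Of 45037 probe sets that are not array controls, 34945 have 1 gene symbol in the platform annotation, 932 have several and 9160 are not listed; those with 1 symbol name 18193 genes, and 34741 of them matched RefSeq by gene ID. Probe sets above the 40th percentile of an array on at least 3 of 12 arrays were kept (25251), and the probe set with the highest mean stood for its gene. The log2(signal + 5) values of all 12 arrays were fitted in limma 3.58.1 (R 4.3.3) with 1 mean per genotype and an intensity trend, which left 8 residual degrees of freedom, and p-values were adjusted by Benjamini-Hochberg over 13985 genes. The procedure was tested on simulated arrays with independent noise for each gene. Deviations shared between arrays and an array that stands apart were not simulated. The number of arrays limits the precision.

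Deviations from the group means of same-numbered Eed and Ring1B deficient arrays correlated across genes at 0.40, 0.61 and 0.18 for replicates 1, 2 and 3. Other pairs had -0.49 to 0.16, so replicate 3 hardly stood out from them. Deviations from a mean cancel within a genotype, so positive values for some pairs bring negative ones for others. The labels do not say what a number shares. The pairing is therefore taken from the data, and the model was also fitted with the replicate as a block.

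Members and gene lists were chosen with earlier results of these data known. Named were the targeted genes, the 12 largest rises and falls among called genes without overlap and with a higher group mean above the median of tested genes, at most 4 genes a list, called ones first and then by size, and 12 fixed genes. Genes named beyond that were chosen after their values were seen. The alternatives were other normalizations, added values, filters, probe set rules, arrays and models, and each array left out. Probe sets with no symbol or several were left out, and the gene T was not analysed.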

Additional observations from a re-analysis of the deposited data

How the results depend on the processing

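The 67 called genes among 123 named by rule kept their direction under each of the 24 alternatives in which they were tested, and 35 of them kept the call with any array left out. Of the 67, 32 had several probe sets. For 30 of these all probe sets had the same direction, though the sizes could differ. The replicate block ended none of the 67 calls and added 28 among the 56 others. Of the genes the report describes, it changed no call other than those given beside them. Calls among the 67 were lost most often without Ring1B deficient replicate 3 (30), Eed deficient replicate 3 (29) or Ring1B deficient replicate 1 (22) and with only the 6 compared arrays (20). Higher calls numbered 256 with each array centred on its median, 186 with the 6 arrays alone, 1142 with the replicate block, 1432 with the block and 6 arrays and 311 without the genes of chromosomes 6 and 14, and 143 to 527 with an array left out. The exclusion of chromosomes and the block on 6 arrays were chosen after seeing the data. Lower calls numbered 45 with the 6 arrays, 564 with the block, 816 with the block and 6 arrays, and 43 to 162 with an array left out. Higher calls of at least 2-fold numbered 126 with 20 added to the signal, 151 with 6 arrays and 111 to 267 with an array left out, and lower ones 52 with the block and 56 with the block and 6 arrays. The trophoblast median was 0.43 with quantile normalization, 0.41 centred, 0.43 with 20 added, 0.54 with the stricter filter, 0.35 with the mean of probe sets and 0.41 to 0.54 with an array left out. The imprinted median was 0.01 centred and 0.06 to 0.26 with an array left out, the actin median 0.68 without chromosomes 6 and 14 and 0.66 to 0.93 with an array left out, and the germline RNA median -0.42 to -0.21. The median of the Polycomb repressive complex 2 list, -0.10, turned to 0.01 and 0.04 in the range of -0.11 to 0.04 with an array left out. The causes were not tested, apart from fewer genes or arrays where these were left out. Dim genes are limited by their signal over background, which the added value compresses.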
